A study of Homo sapiens with 18 samples.

Results

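Human prostate cells placed in the beam of a simulated stereotactic treatment had a higher array signal for TP73 and MDM4 and a lower one for CHEK2 than cells outside it, and TP73 alone passed both the p and the fold threshold against control cells. The genes described here are the p53 relatives TP63 and TP73, the p53 inhibitor MDM4, the damage-sensing kinases ATM and ATR, and the checkpoint kinases CHEK1 and CHEK2. They are 7 genes chosen with earlier results of these data known. Each was to be read from an array row annotated to that gene alone, the one of highest mean where there were several. Such a row was found for 5 of the 7 (TP73, MDM4, ATR, CHEK1 and CHEK2), each with 1 row, out of 22392 genes tested in all. No row of the annotation used here lists TP63, and the 1 row that lists ATM is shared with its neighbour NPAT, so both genes are not analysed here and no level is given for them.

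Expression was measured on 18 arrays in PNT1A, an SV40-immortalised line from healthy human prostate epithelium, in 6 groups of 3. Axis cells lay in the prostate location of a quasi-humanoid phantom and received 70 Gy, as 7 consecutive fractions of 10 Gy. Intestine, lung, thyroid and brain cells lay in the same phantom at 15, 35, 52 and 74 cm from the axial plane and are called peripheral cells below. They received scattered radiation. The study measured the highest such dose in the intestine, less in the lung and the least, at similar levels, in the thyroid and brain. All were far below the axis dose. Control cells were kept out of the beam (untreated in the sample titles, sham-irradiated in the study's methods). All groups were replated and grown for 24 h before RNA was taken. The cells of all groups are 1 line that carries the SV40 large T antigen, which binds p53, and the study's legends describe 3 biological replicates per group.

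The p53 protein and its relatives p63 and p73 are transcription factors that bind the same DNA element. MDM2 and MDM4 bind p53 and hold it inactive, MDM2 also by marking it for degradation. ATM responds mainly to DNA double-strand breaks and ATR to single-stranded DNA at stalled replication forks. ATM passes the signal to the kinase CHK2 and ATR to the kinase CHK1 (the products of CHEK2 and CHEK1), and all 4 kinases can act on the p53 pathway. Much of this control acts on proteins, through phosphorylation and degradation, which an array of mRNA does not measure. SV40 large T antigen binds p53 and the retinoblastoma proteins, while p73 is not among its main targets. p63 maintains the basal layer of the prostate epithelium.

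The values are log2 intensities, so that 1 unit is a doubling, and a gene was called changed where its adjusted p was below 0.05 and it differed more than 1.5-fold (limma with Benjamini-Hochberg adjustment over all genes). Marker levels are given as the percentile of genes by mean level over all arrays. Among the marker genes of epithelium, KRT18 stood at the 82nd percentile and CDH1, the adhesion protein E-cadherin, at the 50.7th. KRT8, KRT19, EPCAM, CLDN7 and CLDN4 stood at the 73.4th, 64.8th, 62.5th, 55.9th and 33.6th, in that order. The mesenchymal gene VIM, often raised in cultured epithelial lines, stood at the 86.9th percentile. The mesenchymal genes FN1, COL1A1 and CDH2 stood higher, at the 96.3rd, 95th and 91.6th. PDGFRB, ZEB1 and ZEB2 stood lower, at the 78.4th, 62.4th and 53.6th. In control cells the mean log2 level was 6.93 to 6.98 for the mesenchymal markers and 5.06 to 5.08 for the epithelial ones. The endothelial marker CDH5 stood at the 34.9th percentile and the luminal prostate markers KLK3 and TMPRSS2 at the 43rd and 31.8th. Among white blood cell markers, PTPRC, the pan-leukocyte antigen CD45, stood at the 6.13th and CD14 at the 43.3rd percentile, but CD68, a lysosomal protein that other cells also make, at the 90.6th. Arrays of a group correlated at 0.9918 or above.

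TP73 has several transcription starts. RefSeq (GRCh38.p14) places the gene at chr1:3652516-3736201 on the forward strand. The outer start gives the full-length TAp73 forms, which activate transcription, and an inner start gives the ΔNp73 forms, which lack the activating domain and can block p53. The array row does not separate them. The 250 bases before each of these starts are shown because TP73 is the member that differed most between axis and control cells. Capitals mark a match to the E2F motif (TTTCCCGC, TTTCGCGC, TTTGCCGC or TTTGGCGC, on either strand), which here runs on the reverse strand from base -235 to base -228 before the start.
TP73 outer start, chr1:3652266-3652515, forward strand: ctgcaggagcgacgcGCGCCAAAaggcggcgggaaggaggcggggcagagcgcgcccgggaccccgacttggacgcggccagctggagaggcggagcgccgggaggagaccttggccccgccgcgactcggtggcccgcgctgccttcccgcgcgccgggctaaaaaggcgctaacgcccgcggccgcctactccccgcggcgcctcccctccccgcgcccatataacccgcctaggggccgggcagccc
TP73 inner start, chr1:3690422-3690671, forward strand: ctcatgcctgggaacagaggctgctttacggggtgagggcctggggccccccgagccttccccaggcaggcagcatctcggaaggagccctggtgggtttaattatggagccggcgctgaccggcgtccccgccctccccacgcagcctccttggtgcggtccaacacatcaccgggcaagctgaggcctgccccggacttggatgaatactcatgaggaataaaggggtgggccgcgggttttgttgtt
Among 12 such windows of the 7 members, the outer TP73 window was the 1 with an E2F match. An exact p53 half-site, searched on both strands, was held by 0. Sites that depart from the searched pattern in any base were not counted, so this does not show that the windows lack p53 elements. Of all 35116 windows of this length, 2.79% held the E2F motif and 5.57% the p53 half-site. These matches describe the letters and not binding.

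TP73 was the member that passed both thresholds in axis against control cells. Its log2 expression was 6.91, 6.98 and 7.11 in axis cells, against 5.99, 6.05 and 6.00 in control cells. The 3 axis arrays stood above all 15 other arrays, of which the highest was lung replicate 3 at 6.43. The SD was 0.10 in the axis and 0.033 in controls (n = 3 each). The log2 fold change was 0.99, or 1.98-fold, with a 95% confidence interval of 0.78 to 1.19 (standard error 0.096) and an adjusted p of 3.39e-07 from limma. Ordered by p-value, TP73 was gene 447 of the 22392 in this comparison. TP73 was the 1 of 5 measured members called higher, and 4.39% of all genes were called higher. None of the 5 was called lower at both thresholds, against 2.6% of all genes. At the adjusted p alone 1 of them, CHEK2, was lower, as were 9.18% of all genes.

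MDM4 (chr1:204516406-204558120), the MDM2 partner that holds p53 inactive, had log2 expression of 7.98, 8.02 and 8.22 in axis cells, against 7.38, 7.52 and 7.67 in control cells. Every axis array lay above every other array, and the highest of the 15 others was control replicate 3. The mean difference was 0.55 (standard error 0.12, 95% confidence interval 0.31 to 0.80), a 1.47-fold difference with an adjusted p of 0.00154 from limma. This passed the adjusted p and missed the fold threshold, which it crossed when control replicate 3 or axis replicate 1 was left out (lowest to highest over 29 alternatives, 1.39-fold to 1.54-fold). MDM2, the p53 target named here after its values were seen, rose 3.74-fold in the same comparison (adjusted p = 5.77e-12 from limma, log2 scale 1.90 with a standard error of 0.081).

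CHEK2 (chr22:28687742-28741834), the kinase downstream of ATM, was lower in the axis. Its log2 expression was 3.60, 4.08 and 3.98 in axis cells, against 4.31, 4.26 and 4.44 in control cells. All 3 axis arrays lay below the lowest of the other 15, lung replicate 1 at 4.16, and axis replicate 1 was the lowest of all. The log2 fold change was -0.45 (standard error 0.13, 95% confidence interval -0.73 to -0.17, adjusted p = 0.0217 from limma), short of the fold threshold. It missed the adjusted p without axis replicate 1 (log2 fold change -0.30, adjusted p = 0.142 from limma) and without control replicate 3 (-0.40, adjusted p = 0.0893). CHEK2 is the dimmest of the measured members relative to all genes, at the 52.5th percentile. RefSeq lists 6 CHEK2 pseudogenes and 1 of MDM4, and whether these array rows also take up pseudogene RNA was not tested.

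CHEK1 (chr11:125625136-125681124), the kinase downstream of ATR, had log2 expression of 8.02, 7.92 and 8.05 in axis cells, against 7.71, 7.60 and 7.91 in control cells. The groups did not overlap, but the lowest axis array and control replicate 3 were only 0.011 apart. The log2 fold change was 0.25 (standard error 0.092, 95% confidence interval 0.06 to 0.45), and its adjusted p of 0.0607 from limma missed the threshold. Without control replicate 3 it was 0.34 with an adjusted p of 0.0181.

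For ATR (chr3:142449235-142578733), the axis and control arrays overlapped. Its log2 expression was 5.96, 6.03 and 6.00 in axis cells, against 5.97, 5.80 and 6.03 in control cells. The log2 fold change of 0.06 had a standard error of 0.11 and an adjusted p of 0.817 from limma, and the 95% confidence interval of -0.18 to 0.30 leaves out a 1.5-fold difference in either direction. Its sign turned without control replicate 2 (-0.0046).

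**Figure D1:**
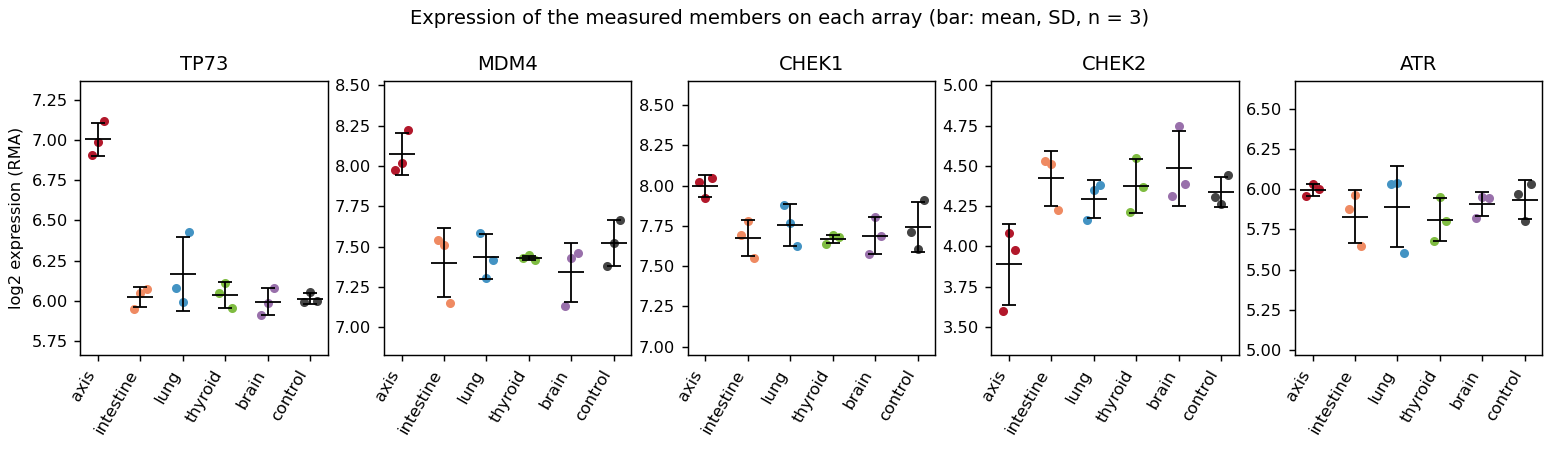
Log2 expression (RMA, vertical axis, same span in each panel) of the 5 measured members on the 18 arrays, by location from axis to control. Points are arrays and bars are the mean and SD of 3. The axis points of TP73, MDM4 and CHEK1 lie above and those of CHEK2 below all 15 other arrays.

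Over all 6 groups at once, limma's F test passed at an adjusted p under 0.05 for 3 of the 5 members, TP73 (adjusted p = 8.27e-07), MDM4 (7.91e-04) and CHEK2 (0.0315), and for 17.1% of all genes. CHEK1 had an adjusted p of 0.0978 and ATR of 0.839. Every axis array lay above all 15 others for TP73, MDM4 and CHEK1, as for 11.7% of all genes, and below them for CHEK2, as for 7.51%.

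In the peripheral cells, TP73 and MDM4 overlapped with control cells in each location. In the intestine, TP73 was 5.95, 6.05 and 6.07 and MDM4 7.54, 7.51 and 7.15. In the lung, TP73 was 6.08, 5.99 and 6.43 and MDM4 7.59, 7.31 and 7.42. Lung replicate 3 alone stood out for TP73, with the next of the 15 arrays outside the beam at 6.11. In the thyroid, where MDM4 had its smallest spread, TP73 was 6.05, 6.11 and 5.95 and MDM4 7.43, 7.45 and 7.42. In the brain, TP73 was 5.91, 5.99 and 6.08 and MDM4 7.13, 7.43 and 7.46. Of these 12 arrays, brain replicate 1 was the lowest for both genes.

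CHEK1, CHEK2 and ATR showed no location apart outside the beam. Over the 12 peripheral and 3 control arrays, CHEK1 ran between 7.55 and 7.91 with a median of 7.69. CHEK2 ran between 4.16 and 4.75 with a median of 4.37, and ATR between 5.60 and 6.04 with a median of 5.95. The lowest ATR array, lung replicate 3, was also the highest for TP73 among these 15.

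None of the 5 members was called against control in the intestine, lung, thyroid or brain, or in the 4 locations pooled, and 0% of all genes were called in any of these comparisons (limma). None of the members had an unadjusted p under 0.05 either. Of all 22392 genes, 723, 812, 901 and 801 did in intestine, lung, thyroid and brain. With the locations pooled 778 genes did, or 3.47%, less than the share of 0.05 that would pass with no difference. With so few members, 0 passing does not set them apart from other genes. The 20 log2 differences lay between -0.18 and 0.15, the lowest being MDM4 in the brain (95% confidence interval -0.43 to 0.06) and the highest TP73 in the lung (-0.05 to 0.36). All 20 intervals covered 0 and all lay inside 1.5-fold, from -0.43 to 0.43. Differences within these intervals are not excluded. With the 4 locations pooled, the differences from control were 0.04 for TP73, -0.12 for MDM4, -0.04 for CHEK1, 0.06 for CHEK2 and -0.07 for ATR, with a smallest unadjusted p of 0.21. Across the 5 groups outside the beam, limma's F test passed for 0 members and 0% of genes (679 genes and 0 members had an unadjusted p under 0.05).

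**Figure D2:**
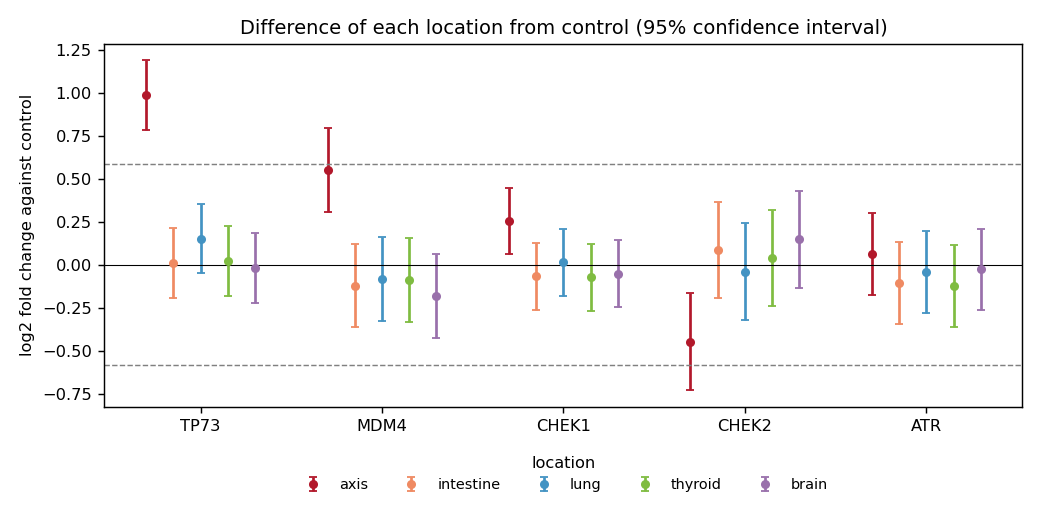
Log2 fold change against control (vertical axis) of each measured member in the 5 phantom locations, with 95% confidence intervals from limma. Dashed lines mark 1.5-fold. The axis interval of TP73 lies wholly above the upper line, and all 20 peripheral intervals cover 0 and stay between the lines.

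Ordered by group mean, the axis was highest for TP73, MDM4, CHEK1 and ATR and lowest for CHEK2. The step between the axis and its neighbour was 7.13 times the pooled SD of replicates for TP73, 3.65 times for MDM4, 2.19 times for CHEK1 and 2.24 times for CHEK2, but 0.42 times for ATR. All steps among the other groups were under 1 pooled SD, except that from lung to thyroid for TP73 (1.11). The order of control and peripheral cells did not follow distance from the axial plane in any of the 5 genes.

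Axis cells were then set against the mean of the 4 peripheral locations, which also lay in the phantom. TP73 rose 1.93-fold (log2 0.95, standard error 0.076, adjusted p = 1.41e-08 from limma) and MDM4 1.59-fold (log2 0.67, standard error 0.092, adjusted p = 1.21e-05). Thus 2 of 5 members were called higher, against 4.85% of all genes, and 0 lower, against 2.27%. CHEK2 (log2 -0.51, 95% confidence interval -0.73 to -0.28, adjusted p = 0.0011) and CHEK1 (0.30, 0.15 to 0.45, adjusted p = 0.00397) passed the adjusted p alone, and ATR did not (0.14, -0.05 to 0.32, adjusted p = 0.329). This comparison uses the same axis arrays as the one against control, so it is no second measurement of them.

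The checkpoint kinases were compared on the same array, as CHEK1 minus CHEK2. The difference was 4.42, 3.84 and 4.07 in axis cells, against 3.40, 3.34 and 3.47 in control cells. All 15 arrays outside the beam lay between 3.05 and 3.72, below the lowest axis array. The mean shift was 0.78 on the log2 scale between the axis and the other 15 arrays, and 0.70 between the axis and the 3 control arrays. The axis arrays already lay above all others for CHEK1 and below all others for CHEK2, so their difference had to separate. It is given as a description, and no p-value is read from it. This measures unequal change of 2 array rows and not which mRNA is more abundant. It was the 1 of 3 intended pairs that could be made, since ATM and TP63 have no value.

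**Figure D3:**
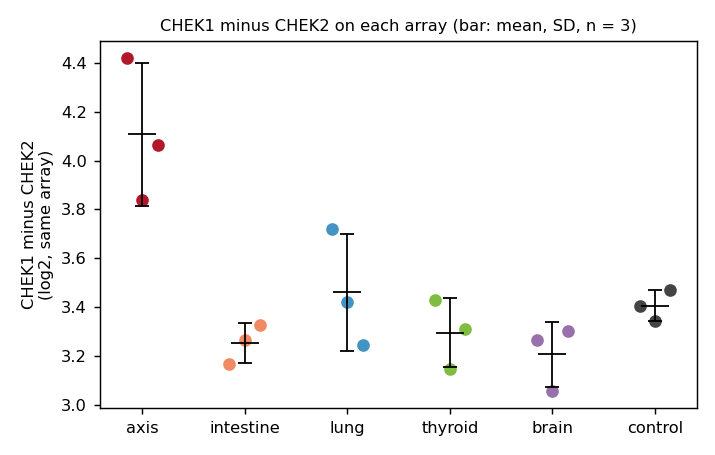
CHEK1 minus CHEK2 on the same array (log2, vertical axis) by location. Points are arrays and bars are the mean and SD of 3. The axis arrays lie between 3.84 and 4.42, above the 15 others at 3.05 to 3.72.

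The surrounding pathway was read from 6 lists, with 78 of 88 genes measured. In the axis against control, 12 of the 78 were called higher and 6 lower, beside 4.39% and 2.6% of all genes, and the median log2 fold change of all genes was 0.0070. No list was tested against other genes. None of the 78 was called in any peripheral location. Among 20 measured regulators and partners of p53, 5 rose and 1 fell (4.39% and 2.6% of all genes, median log2 fold change 0.10). FBXW7, a subunit of a ubiquitin ligase that degrades cyclin E and MYC, rose 4.75-fold (log2 expression 6.95 ± 0.068 in axis and 4.70 ± 0.073 in control cells, SD, n = 3 each, adjusted p = 7.56e-13 from limma). PPM1D, the phosphatase WIP1 that removes activating phosphates from ATM, CHK2 and p53, rose 4.50-fold (8.94 ± 0.16 in axis and 6.77 ± 0.090 in control cells, adjusted p = 3.42e-12 from limma). HIPK2, a kinase that phosphorylates p53, fell (log2 fold change -0.66, adjusted p = 3.81e-05 from limma), and was not called without axis replicate 3.

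The sensors around ATM and ATR had no called genes, in lists small enough that the shares over all genes (4.39% higher and 2.6% lower) would give few. At an adjusted p under 0.05 alone, 11.2% of all genes were higher and 9.18% lower in axis against control cells. Of 12 break sensors and ATM adaptors, 0 were called in either direction, while 2 passed the adjusted p upward and 0 downward (limma, median log2 fold change 0.075). Named after its values were seen, MDC1, which holds ATM signalling at breaks, had a 1.497-fold difference (adjusted p = 4.9e-05 from limma) and was called when control replicate 1 or 2 or axis replicate 1 was left out. Of 12 ATR and CHK1 activators, 0 were called, while 4 passed the adjusted p upward and 2 downward (median 0.14). The largest of these differences, named for that reason, were HUS1, part of the clamp that activates ATR, at 1.43-fold and CLSPN, the adaptor between ATR and CHK1, at 1.42-fold. Of 8 relatives of these kinases and their stabilisers, 0 were called, while 1 passed the adjusted p downward and 1 upward (median 0.0084). These were PRKDC, the catalytic subunit of DNA-PK, with a log2 fold change of -0.36 (adjusted p = 9.08e-04 from limma), and MTOR with 0.27 (adjusted p = 0.00631).

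Downstream of the checkpoint kinases, 3 of 14 effectors rose and 1 fell (4.39% and 2.6% of all genes, median 0.16). PLK3, a stress-responsive polo-like kinase, rose 3.07-fold (adjusted p = 6.32e-07 from limma), and E2F1, which drives S phase genes, rose 1.75-fold (adjusted p = 3.38e-06). A link between E2F1 and the level of TP73 was not tested. PLK1, which drives entry into mitosis, fell (log2 fold change -0.61, adjusted p = 4.64e-06), but was not called without control replicate 3, and without control replicate 1 or axis replicate 2 the effectors called lower were 2.

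Genes of the basal programme that p63 controls split in direction, with 4 of 12 higher and 4 lower (4.39% and 2.6% of all genes, median 0.11). Named after its values were seen, DSC3, called higher, is dim, at the 16.2nd percentile. Among genes above the median mean, 3 were higher and 4 lower. SFN, the cell cycle inhibitor 14-3-3 sigma, which p53 also induces, rose 1.63-fold (adjusted p = 2.78e-05 from limma) and JAG2, a Notch ligand, by 0.68 on the log2 scale (adjusted p = 3.94e-04). DST, a hemidesmosome linker, fell (log2 fold change -1.27, adjusted p = 1.25e-09), as did ITGB4, the hemidesmosome integrin (-0.98, adjusted p = 2.94e-06). Cell type markers moved in the axis too. The mean log2 level of 7 mesenchymal markers was 6.01 to 6.16 in axis cells and 6.93 to 6.98 in control cells, with 4 of the 7 lower (PDGFRB, COL1A1, CDH2 and FN1) and 0 higher. The 7 epithelial markers ran from 4.60 to 4.77 in axis cells and 5.06 to 5.08 in control cells, with KRT19 lower, and the 4 basal markers from 4.21 to 4.51 in axis cells and 4.98 to 5.02 in control cells, with 3 lower. The 4 luminal, 3 endothelial and 4 leukocyte markers had none called, with leukocyte means of 3.97 to 4.06 in axis cells and 4.21 to 4.24 in control cells. The part of these shifts in the values of the members was not tested, and in bulk RNA fewer cells of a kind and less RNA per cell cannot be told apart.

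**Figure D4:**
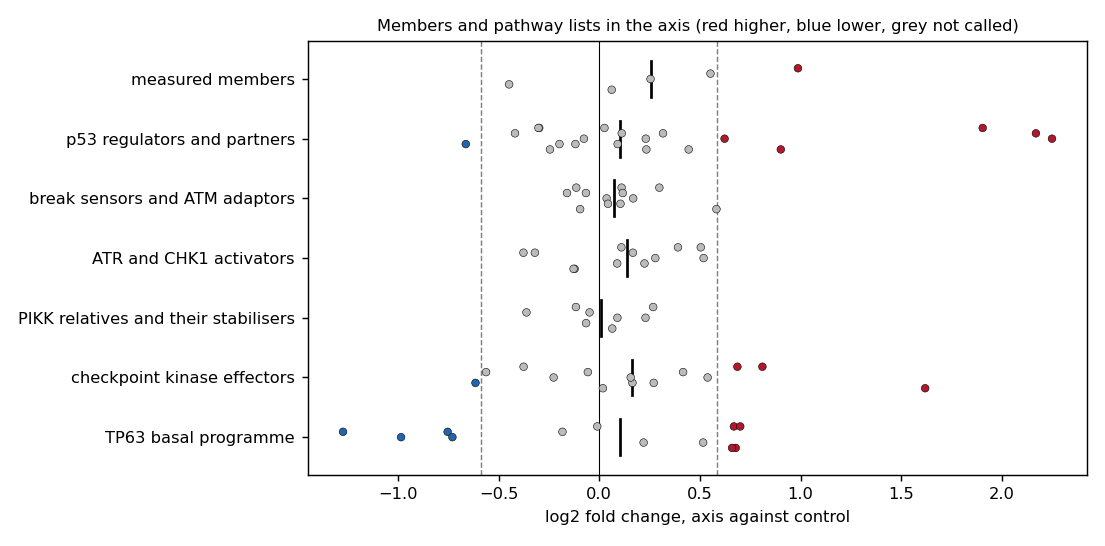
Log2 fold change in axis against control cells (horizontal axis) for the 5 measured members and the 78 measured genes of the 6 lists. Each point is a gene, red if called higher, blue if called lower and grey if not called, vertical bars are medians and dashed lines mark 1.5-fold. The 3 lists of sensors and relatives, 32 genes, hold 0 called genes, where 4.39% of all genes were called higher and 2.6% lower.

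Of all genes, those whose pattern over the 18 arrays was most like that of TP73 were AMOTL1, a junction protein related to angiomotin (Pearson r = 0.978), CHAC1, a glutathione-degrading enzyme of the stress response (r = 0.973), and ANK1, an ankyrin of the membrane skeleton (r = 0.972). These correlations share the step between the axis and the other arrays. Over the 15 arrays outside the beam r was 0.675 for AMOTL1, 0.576 for CHAC1 and 0.709 for ANK1. The 3 genes were picked over arrays that include these 15. Among the 15, TP73 stood at 6.43 in lung replicate 3 and next at 6.11, and the part of that array in r was not tested. In the axis these 3 genes had log2 fold changes of 1.02, 1.79 and 1.26, in the same order.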

How the data were processed

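The deposited values are log2 intensities per probe set, which the authors obtained with RMA (background correction, normalisation between arrays and summary of probes). The submitters' processing notes name RMA and affy, with no version, and the genome build of the annotation is not given in the sources used here. The labels and the study's methods name different labelling kits. Of 53617 array rows, 23866 have 1 gene symbol, 1852 several and 27899 are not listed with any, and rows of the last 2 kinds were left out. For 630 genes with several rows the one with the highest mean was used.

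All 18 arrays were fitted together with limma 3.58.1 (R 4.3.3, functions lmFit and eBayes, 1 mean per group, 12 residual degrees of freedom), and p-values were adjusted with Benjamini-Hochberg over 22392 genes. The median standard error in the axis comparison was 0.101 on the log2 scale, which the number of arrays limits. The members and lists were chosen with earlier results of these data known. Named genes are the members, up to 2 called genes per list with the highest and 2 with the lowest fold change in the axis, and the 3 genes most like each called member over the arrays. Others are named as chosen after their values were seen. Replicate numbers were not used to pair the arrays in the main fit, as described with the alternatives. Alternatives covered the rows tested, a filter on dim genes, centring and normalization, the variance model, array weights, a replicate block, the thresholds and leaving out each array. In simulated data of the axis comparison over 22392 genes, the scripts found 60 of 60 genes given a 4-fold change, 70 of 70 given 2-fold and 55 of 70 given 1.6-fold, with 4 false calls. Only these genes were changed there, and the noise was normal and independent between genes. In the data, 11.2% of all genes were higher and 9.18% lower at the adjusted p. The simulated rates therefore need not hold for the data.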

Additional observations from a re-analysis of the deposited data

Results flagged for a closer look

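For 4 of the 5 measured members, the difference between axis and control cells differed from the mean difference between peripheral and control cells, tested as the axis against the pooled peripheral locations in limma. This difference of differences was 0.95 on the log2 scale for TP73 (adjusted p = 1.41e-08) and 0.67 for MDM4 (adjusted p = 1.21e-05). It was 0.30 for CHEK1 (adjusted p = 0.00397) and -0.51 for CHEK2 (adjusted p = 0.0011). For ATR it was 0.14 (adjusted p = 0.329). At an adjusted p under 0.05 alone, 15.8% of all genes were higher and 10.4% lower in this comparison. The 3 axis arrays lay above all 15 other arrays for TP73, MDM4 and CHEK1, as for 11.7% of all genes. They lay below them for CHEK2, as for 7.51%. Groups of 3 arrays are too small for a test of single outlying arrays, so lung replicate 3, the highest TP73 array outside the beam, was not tested.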

How the results depend on the processing

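Of the counts of members and the CHEK1 and CHEK2 difference, 353 alternative values were labelled unchanged and 11 were not. A small shift in a count was still labelled unchanged. Members passing limma's F test over the 6 groups, 3 as reported, were 2 with all array rows tested. They were also 2 without axis replicate 1 or 3, and 4 with cyclic loess normalization or a variance trend. Members called higher in axis against control cells, 1 as reported, were 2 with array weights or no fold threshold and 0 with a fold over 2, and 1 to 2 when each array was left out in turn, with 2 (MDM4 added) without control replicate 3 or axis replicate 1. Members called lower, 0 as reported, were 1 with no fold threshold. In axis against pooled peripheral cells, 2 as reported, those higher were 3 with no fold threshold, 0 with a fold over 2 and 1 tested against a fold of 1.5. Those lower, 0 as reported, were 1 with no fold threshold and 0 to 1 when each array was left out, with 1 (CHEK2) without axis replicate 2. CHEK1 minus CHEK2, 1 of the 11, kept its sign and shifted by 0.70 against control arrays only, beside 0.78 against all other arrays. The ATR log2 fold change in the axis ran from -0.0046 (without control replicate 2, where its sign turned) to 0.11 when each array was left out. Over 29 alternatives the log2 fold change of TP73 in the axis was 0.93 to 1.03, past both thresholds in all 29 (adjusted p 3.33e-08 to 2.67e-05 from limma). That of MDM4 was 0.48 to 0.63, past the adjusted p in 29 and the fold in 3. That of CHEK2 was -0.54 to -0.30, past the adjusted p in 26, and missed it with all array rows tested (0.0546). That of CHEK1 was 0.19 to 0.34, past the adjusted p in 6, among them quantile (0.033) and cyclic loess normalization (0.0139). The cause of these shifts was not tested.

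Counts over all genes in axis against control, 984 higher and 583 lower, were 2517 and 2055 with no fold threshold, 332 and 172 with a fold over 2, 360 and 189 tested against a fold of 1.5, and 960 lower with all rows. Against peripheral cells, 1087 higher and 508 lower became 3528 and 2335, 359 and 164, 486 and 219, and 796 lower under these settings. Of the lists, break sensors called higher were 1 after median centring or cyclic loess, and effectors called lower were 2 after quantile and 0 after cyclic loess normalization. Without the fold threshold, the 20 p53 regulators had 8 higher and 3 lower and the 14 effectors 6 higher and 4 lower. At that setting 11.2% of all genes were higher and 9.18% lower. With the replicate number as a block, 1 member was called higher and 0 lower in axis against control cells, and 983 and 582 of all genes, so it changed no call of a member. Arrays with the same number did not deviate together (45 pairs, correlations of -0.357 to 0.225, 8 of them over 0.1), and 4 of 18 arrays correlated best with their own number. The study's methods describe sham-irradiated cells cultured in parallel, but do not say whether equal numbers mark the same run. Weak correlations cannot settle that.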
